A study of Ovis aries with 16 samples.

Results

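Elastic fibre assembly was described through 10 genes chosen by name: ELN, FBN1, FBN2, FBLN1, FBLN5, LOX, LOXL1, LOXL2, MFAP4 and MFAP5. Every probe set that the platform's probe table gives to 1 of these symbols alone was taken, and probe sets of the same gene were kept apart. This gave 10 probe sets for 8 genes, of 24016 probe sets tested, with 2 each for ELN and FBLN1 and 1 each for FBN1, FBLN5, LOX, LOXL1, MFAP4 and MFAP5. FBN2 and LOXL2 had no probe set under their symbol and were not analysed here. ELN probe set 1 is Bt.5361.2.S1_a_at and ELN probe set 2 is Bt.5361.1.S1_a_at. FBLN1 probe set 1 is Bt.22545.1.S1_a_at and FBLN1 probe set 2 is Bt.22545.2.S1_at, and in both genes probe set 1 is the brighter.

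The RNA came from peripheral lung of lambs aged 3 days, 8 carrying an aortopulmonary shunt and 8 controls. In the shunt lambs, fetal surgery 9 ± 6 days before term had joined the ascending aorta to the main pulmonary artery with a Gore-tex graft 8.0 mm wide and 2 mm long, which models a heart defect that floods the lung circulation from birth. The controls had a sham operation, and both groups were born by spontaneous delivery. The labels describe no lamb individually, so each array was taken as 1 lamb, and if arrays shared an animal the spread behind the p-values would be partly technical. Sheep RNA was hybridized to probes made for cattle, so mismatched bases can dim a probe set whatever the RNA level.

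Elastic fibres give the lung its recoil and the walls of its arteries their stretch. Cells secrete tropoelastin, the product of ELN, onto a scaffold of microfibrils built from the fibrillins FBN1 and FBN2. Fibulins such as FBLN5 bring tropoelastin to the scaffold, and the copper-dependent oxidases LOX and LOXL1 cross-link it into an insoluble polymer. In the lung most elastin is laid down around birth, by smooth muscle cells of the vessels and airways and by fibroblasts of the growing alveolar septa.

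Control replicate 2 stood apart from the other arrays, and the members are therefore given with and without it. Its mean correlation with the other 15 arrays was 0.983, against 0.990 to 0.993 for the rest. Array medians were 7.135 ± 0.009 in shunt and 7.158 ± 0.016 in control lambs (SD, n = 8 each, exact permutation p = 0.000777). The poly-A probe sets are made for RNA that can be added as a labelling control. Whether any was added to these samples is not known. They averaged 4.23 ± 0.01 in shunt and 4.31 ± 0.11 in control lambs (exact permutation p = 0.00124). Such levels are dim: a probe set of HBB, an erythroid marker, averaged 4.23 and exceeded just 3.86% of probe sets. Signal over background is unknown for the poly-A probe sets, so a difference in labelling cannot be read from them. Processing and group cannot be told apart for such differences. Values throughout are log2 levels after RMA, and a difference of 1 is a doubling.

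The brighter ELN probe set was higher in shunt lung, and the call rested on whether control replicate 2 was counted. ELN probe set 1 ran from 11.23 through a median of 11.55 to 11.72 in shunt lambs, against 10.78 through 10.96 to 11.71 in control lambs. Only 1 of 8 shunt lambs lay above the highest control, which was control replicate 2, while 8 of 8 lay above the other 7 controls, whose highest value was 11.13. The mean was 11.51 ± 0.19 in shunt and 11.03 ± 0.30 in control lambs (SD, n = 8 each), a difference of 0.48 ± 0.11 (SE), or 1.40-fold with a 95% confidence interval of 1.18 to 1.65. Adjusted over all probe sets this did not pass the threshold of 0.05 (limma, adjusted p = 0.115), and the probe set ranked 99 by p.

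Without control replicate 2 the ELN difference was 0.58 ± 0.08 (SE, n = 8 shunt and 7 control), or 1.49-fold with a 95% confidence interval of 1.33 to 1.68, and it passed (adjusted p = 0.0116, rank 2 by p). The 7 remaining controls averaged 10.93 ± 0.12 (SD), a spread below that of all 8. With any other single array left out, the difference ran from 0.45 to 0.52 and the adjusted p from 0.0644 to 0.249.

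**Figure D1:**
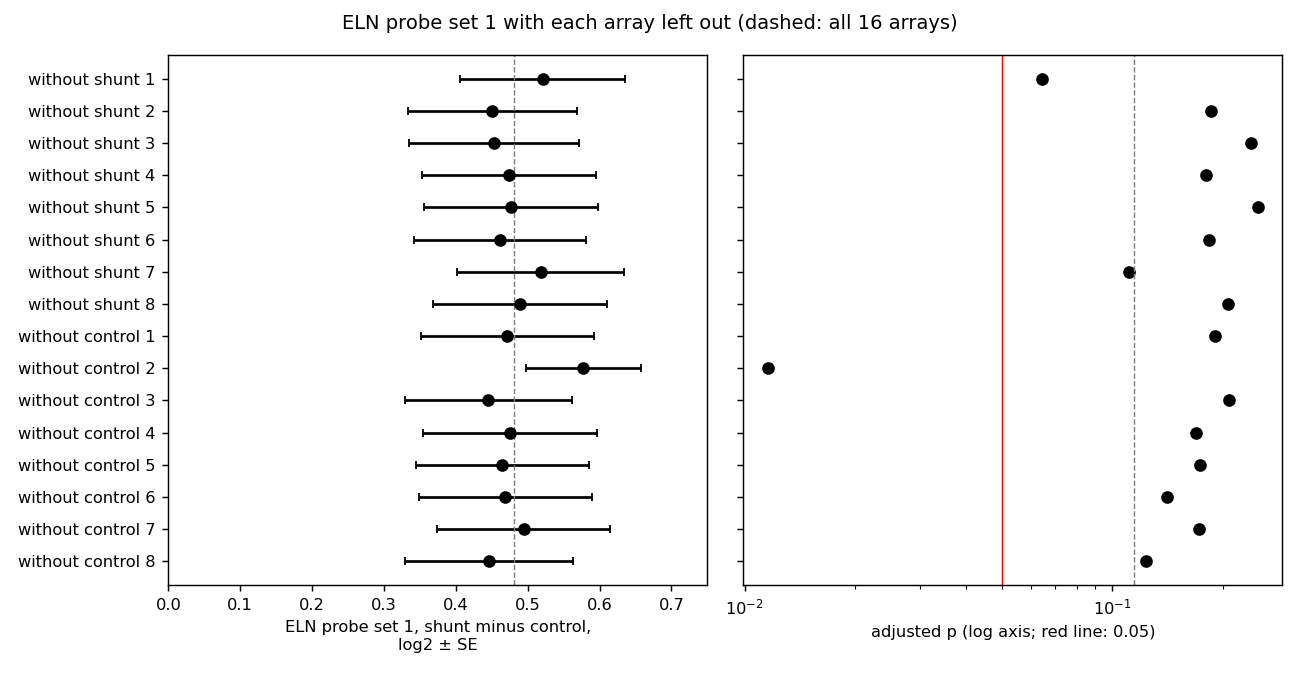
Left, the shunt minus control difference of ELN probe set 1 (log2, bars are SE) with each array left out in turn, and right, its adjusted p on a log axis with the threshold of 0.05 in red. The point without control replicate 2, at 0.58 and an adjusted p of 0.0116, is the 1 of 16 left of the red line.

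The dimmer ELN probe set did not show this difference. ELN probe set 2 ran from 6.79 through 7.22 to 7.32 in shunt lambs, against 6.92 through 7.14 to 7.73 in control lambs, with control replicate 2 highest again and the groups otherwise overlapping. Its difference was -0.02 ± 0.10 (SE, adjusted p = 0.933), with a 95% confidence interval of -0.24 to 0.19, and 0.05 ± 0.08 without control replicate 2 (adjusted p = 0.836). Its mean over all arrays was at percentile 50.5 of the probe sets, against 96.1 for ELN probe set 1, and signal over background is unknown for both.

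Subtracting ELN probe set 2 from ELN probe set 1 within each lamb separated the groups with no overlap. This subtraction was added after the values were seen. It ran from 4.19 through a median of 4.35 to 4.49 in shunt lambs, against 3.66 through 3.86 to 3.98 in control lambs, and control replicate 2, at 3.98, lay with its group. The same subtraction, brightest minus second brightest probe set, was made for all 2913 genes with more than 1 single-symbol probe set and fitted together. ELN had the smallest p of the 2913, with a difference of 0.50 ± 0.07 (SE), or 1.42-fold (limma, adjusted p = 0.00189), and 0.52 ± 0.07 without control replicate 2 (adjusted p = 0.00127). With single arrays left out the adjusted p ran from 0.00127 to 0.00749.

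Of the 2913 genes, 2 passed as higher (0.0687%) and 0 as lower, and without control replicate 2 ELN was the 1 that passed (0.0343%). Groups did not overlap for 3 genes in the higher direction (0.103%) and 2 in the lower. The median difference over the 2913 genes was 0.02, with the middle 90% between -0.18 and 0.22 and a highest value of 0.855. A shift with signal level was also present over all probe sets, from a median difference of -0.04 in the lower middle of the signal range (decile 4) to 0.04 at its bright end (decile 10). Its part in the ELN subtraction was not tested. The subtraction shows that the ELN probe sets differed unequally between the groups, and which of them follows total ELN RNA was not tested.

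**Figure D2:**
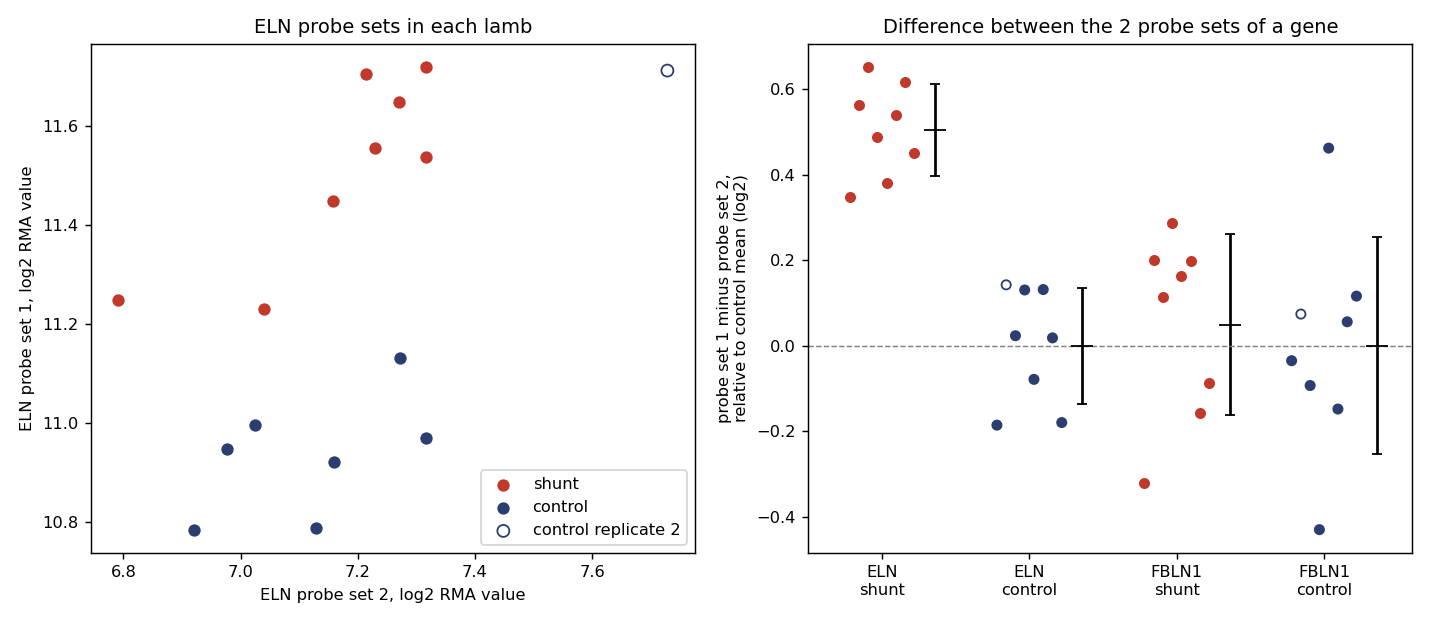
Left, the log2 value of ELN probe set 1 against ELN probe set 2 in each lamb, and right, probe set 1 minus probe set 2 for ELN and FBLN1, relative to the control mean of each gene (log2, points are lambs, bars are mean ± SD, n = 8). The 8 shunt lambs lie above all 8 controls for ELN, including control replicate 2 (open circle), and the groups overlap for FBLN1.

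Among the microfibril proteins, FBN1 had a higher mean in shunt lung, and MFAP4 and MFAP5 had means within 0.1 of each other in the 2 groups. FBN1, the main fibrillin of the microfibril after birth, ran from 12.43 through 12.73 to 12.92 in shunt lambs, against 12.15 through 12.48 to 12.78 in control lambs. The groups overlapped, with 7 of 8 shunt lambs above the control mean. Its difference was 0.22 ± 0.09 (SE), or 1.16-fold with a 95% confidence interval of 1.02 to 1.32, which did not pass over all probe sets (adjusted p = 0.299). Leaving out control replicate 2 gave 0.26 ± 0.08 (adjusted p = 0.274).

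MFAP5, a small glycoprotein that binds fibrillins, ran from 11.37 through 11.87 to 12.13 in shunt lambs, against 11.40 through 11.61 to 12.34 in control lambs. Its difference was 0.07 ± 0.13 (SE, adjusted p = 0.831), with an interval from -0.21 to 0.35, and control replicate 2 had the lowest MFAP5 of the controls. MFAP4, a microfibril-associated protein that binds integrins, varied most between lambs, from 7.21 through 8.59 to 8.86 in shunt lambs, against 7.63 through 8.60 to 9.11 in control lambs. Shunt replicate 7 was far below the other shunt lambs, of which the next lowest was 8.17. The MFAP4 difference was -0.04 ± 0.24 (SE, adjusted p = 0.957), with an interval of -0.53 to 0.46, and without control replicate 2 it was 0.03 ± 0.24 (adjusted p = 0.978).

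Of the fibulins, FBLN5 had a higher mean in shunt lung and neither FBLN1 probe set did. FBLN5, which links tropoelastin to microfibrils, ran from 11.04 through 11.65 to 11.88 in shunt lambs, against 10.57 through 11.27 to 11.43 in control lambs. Of the shunt lambs 6 of 8 lay above every control, control replicate 2 included, and the other 2, shunt replicates 1 and 7, were at 11.07 and 11.04, below the control mean of 11.18. The FBLN5 difference was 0.38 ± 0.14 (SE), or 1.30-fold with an interval of 1.06 to 1.60, and did not pass (adjusted p = 0.271). It was 0.40 ± 0.15 without control replicate 2 (adjusted p = 0.338).

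FBLN1, a fibulin found within elastic fibres and basement membranes, was measured by 2 probe sets. Its probe set 1 ran from 9.02 through 9.87 to 10.42 in shunt lambs, against 9.05 through 9.82 to 10.75 in control lambs. Its probe set 2 ran from 7.80 through 8.22 to 8.60 in shunt lambs, against 7.95 through 8.23 to 9.15 in control lambs. Control replicate 2 was the highest of all 16 lambs in both. The differences were -0.05 ± 0.22 and -0.10 ± 0.15 (SE, adjusted p = 0.937 and 0.784), with intervals of -0.51 to 0.41 and -0.41 to 0.21. Both had the other sign without control replicate 2, at 0.08 ± 0.20 and 0.02 ± 0.11.

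Both cross-linking oxidases had a higher mean in shunt lung, and neither passed. LOXL1, the oxidase that FBLN5 tethers to the fibre, ran from 10.39 through 10.77 to 11.18 in shunt lambs, against 10.26 through 10.56 to 11.01 in control lambs. Its difference was 0.16 ± 0.12 (SE, adjusted p = 0.547), with an interval of -0.09 to 0.41, and 6 of 8 shunt lambs lay above the control mean. LOX, which cross-links collagen as well as elastin, ran from 8.04 through 8.68 to 9.09 in shunt lambs, against 7.88 through 8.50 to 8.93 in control lambs. Its difference was 0.15 ± 0.15 (SE, adjusted p = 0.686), with an interval of -0.18 to 0.47. Neither changed its direction or its side of the threshold without control replicate 2, at 0.17 and 0.16.

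**Figure D3:**
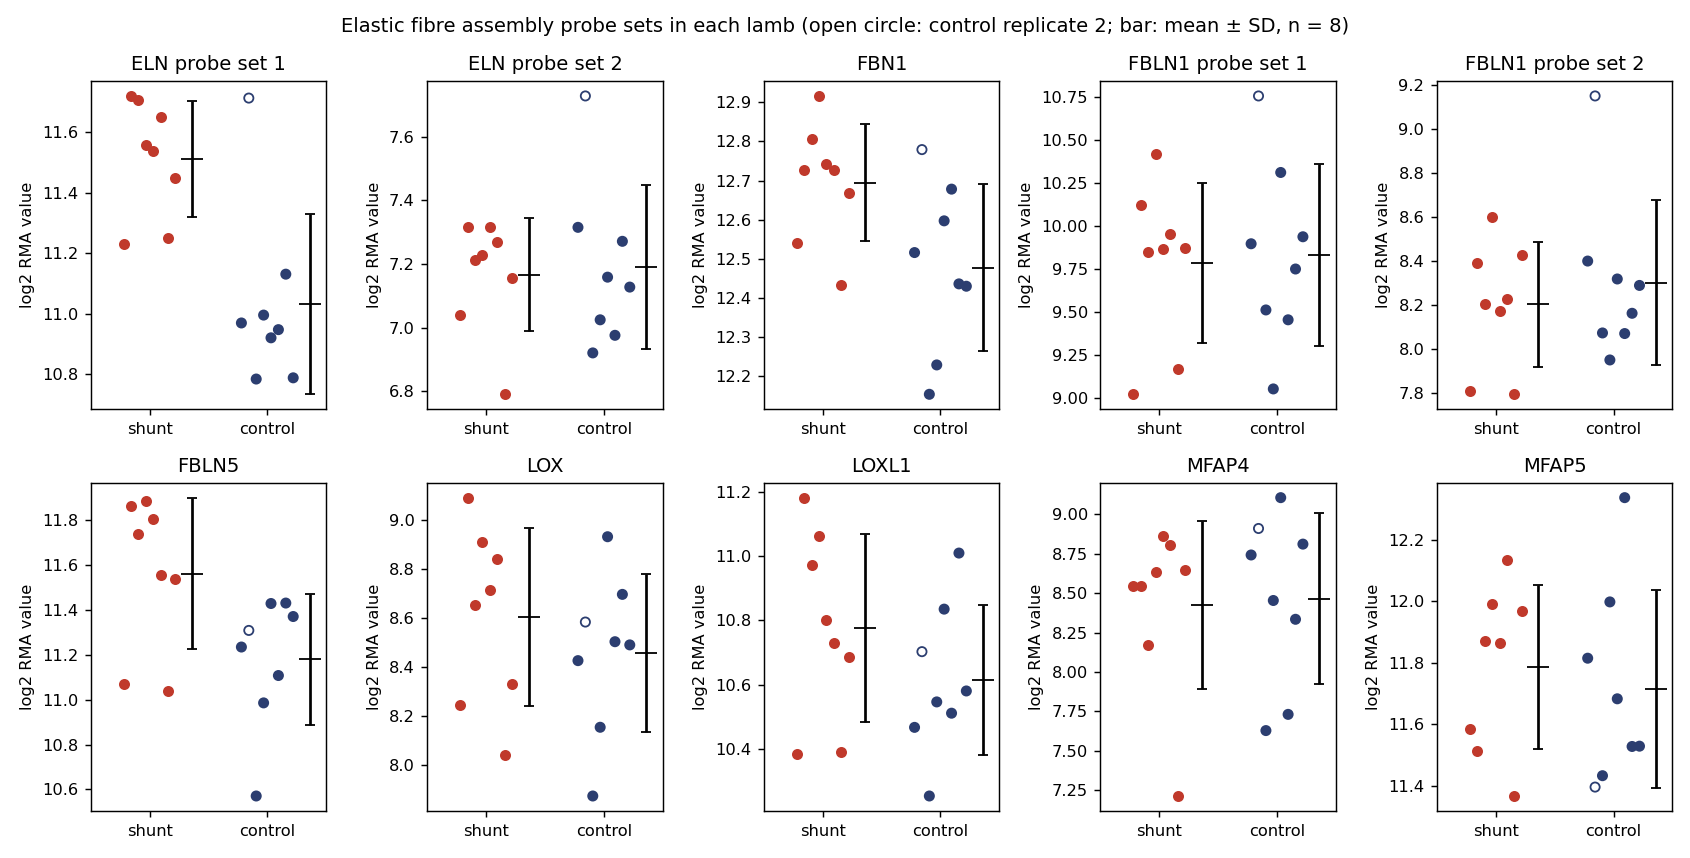
The log2 RMA value of each of the 10 probe sets in each lamb, shunt left and control right, with mean ± SD (n = 8) and control replicate 2 as an open circle. In ELN probe set 1 the open circle, at 11.71, is the only control above 11.13.

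In all, 0 of the 10 probe sets passed over all probe sets in either direction by limma, where 0.0666% of all probe sets passed as higher and 0.00416% as lower. At an unadjusted p under 0.05, ELN probe set 1, FBLN5 and FBN1 were higher, 3 of 10 against 6.42% of all probe sets, and 0 of 10 were lower against 7.32%. Of the 10 differences 6 were above 0, against 44.9% of all probe sets, and 4 below, against 55.1%. The median difference was 0.11 over the 10 and -0.01 over all 24016. Over the brightest of all probe sets (decile 10), where ELN probe set 1, FBLN5 and FBN1 lie, the median was 0.04. The shares here are over probe sets of all signal levels. With control replicate 2 left out, 1 of 10 passed as higher against 0.0583% of all probe sets, and the same 1, ELN probe set 1, had groups that did not overlap, against 0.0750%. At an unadjusted p under 0.05 the count was again 3 of 10 higher, where the background was 4.91%, and 0 of 10 lower, where it was 6.61%. All 10 differences were then above 0, as were 43.9% of all probe sets, with 56.1% below. Control replicate 2 lay below the control mean in just 1 of the 10, so leaving it out raised the other differences by arithmetic. The 4 that changed sign lay between 0.02 and 0.08 (limma, adjusted p from 0.836 to 0.978), so the 10 of 10 is not read as a rise of the set. Probe sets of a gene are not independent of each other, and neither are genes that vary together from lamb to lamb.

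**Figure D4:**
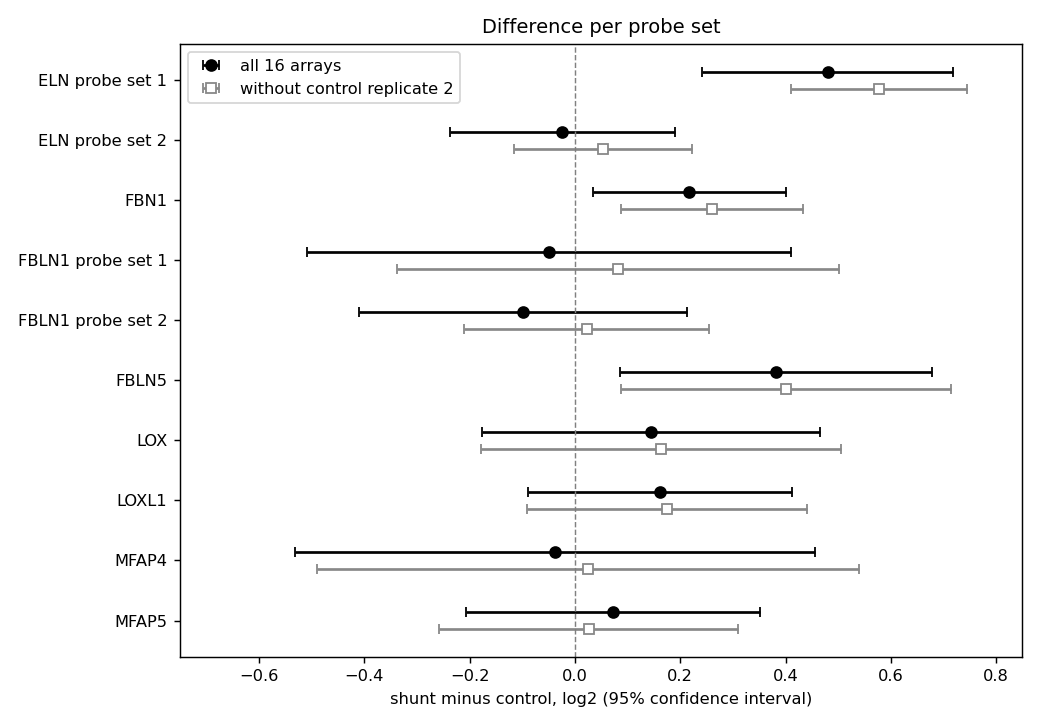
The shunt minus control difference (log2) of each probe set with its 95% confidence interval, over all 16 arrays (filled) and without control replicate 2 (open). The intervals of ELN probe set 1, FBN1 and FBLN5 lie above 0 in both, before adjustment over all probe sets.

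The same few lambs were low or high across many of the probe sets. Shunt replicate 7 was lowest or second lowest of the shunt lambs in 10 of 10 probe sets, and shunt replicate 1 in 8 of 10. Among the controls, control replicate 3 was lowest or second lowest in 8 of 10, and control replicate 2 was highest in 5 of 10. The same counts were not made over all probe sets, so it is not known whether they are particular to the members. To describe this without the group difference, each group's mean was subtracted and ELN probe set 1 was correlated with the other 9 probe sets over the lambs, with a permutation test within groups and adjustment over the 9 pairs.

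Of the other genes, LOXL1 had an r with ELN probe set 1 between 0.584 and 0.815 in each set of lambs tried. With LOXL1, Pearson's r was 0.584 (permutation p = 0.0168, adjusted p = 0.0302) and Spearman's rho 0.729 (permutation p = 0.00256, adjusted p = 0.0115) over 16 lambs. Without the 2 lambs farthest from the median of ELN, control replicate 2 and shunt replicate 2, r was 0.734. Leaving out control replicate 2 alone gave r = 0.815 (permutation p = 0.00071, adjusted p = 0.00639), and it remained 0.691 without the 2 farthest of those lambs, shunt replicates 1 and 7. For FBLN5 and LOX, r was 0.537 and 0.523 over 16 lambs (permutation p = 0.0420 and 0.0439, adjusted p = 0.0564 for both), with rho of 0.585 and 0.682 (permutation p = 0.0239 and 0.00587, adjusted p = 0.0391 and 0.0176). They were 0.661 and 0.617 without the 2 farthest lambs, and 0.717 and 0.708 without control replicate 2 alone (adjusted p = 0.0134 for both), where rho was 0.621 and 0.604 (adjusted permutation p = 0.0568 for both). Leaving out shunt replicates 1 and 7 as well gave r = 0.476 for FBLN5 and 0.552 for LOX.

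The relations of ELN with the fibrillin and with FBLN1 did not pass without control replicate 2. They were weaker again without shunt replicates 1 and 7, as were those with FBLN5, LOX and LOXL1. For FBN1, r was 0.662 and rho 0.556 (permutation p = 0.00655 and 0.0261, adjusted p = 0.0147 and 0.0391), with r = 0.567 without the 2 farthest lambs. With control replicate 2 left out it was 0.537 (adjusted p = 0.0652). For the FBLN1 probe sets, r was 0.679 and 0.784 (permutation p = 0.00607 and 0.00648, adjusted p = 0.0147 for both), and rho was 0.547 and 0.638 (permutation p = 0.0314 and 0.0121, adjusted p = 0.0404 and 0.0271). These r were 0.471 and 0.485 without the 2 farthest lambs, and 0.503 for both without control replicate 2 (adjusted p = 0.108 and 0.127). Without control replicate 2 and shunt replicates 1 and 7, r was 0.291 for FBN1 and 0.065 and -0.0080 for the FBLN1 probe sets. MFAP4 (r = 0.375, rho = 0.256, permutation p = 0.185 and 0.343, adjusted p = 0.208 and 0.386) and MFAP5 (r = -0.012, rho = 0.159, permutation p = 0.968 and 0.568, adjusted p = 0.968 and 0.568) did not pass. Without the 2 farthest lambs the r of MFAP4 was 0.315 and that of MFAP5 was 0.530. The other ELN probe set had r = 0.871 and rho = 0.794 (permutation p = 0.00049 and 0.00068, adjusted p = 0.00441 and 0.00612), and r = 0.716 without the 2 farthest lambs. It was 0.565 without control replicate 2 and shunt replicates 1 and 7.

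As a description with no test, LOXL1 ranked 16 of 24015 probe sets by its r with ELN probe set 1 over the 15 lambs without control replicate 2. ELN probe set 2 ranked 95, FBLN5 122 and LOX 142 there, where 95% of probe sets had an r under 0.531. FBN1 ranked 1141 (r = 0.537), just above that mark, and the FBLN1 probe sets ranked 1518 and 1522, below it. Over all 16 lambs, where 95% of probe sets had an r under 0.649, ELN probe set 2 ranked 13, with r = 0.871, and FBLN1 probe set 2 ranked 186. FBLN1 probe set 1 ranked 894 and FBN1 1065, also above that mark. LOXL1 ranked 1900 over the 16, FBLN5 2434 and LOX 2615, all 3 below that 95% mark, so their ranks depended on whether control replicate 2 was counted. The named genes of highest r with ELN over 16 lambs were AFG3L2 (0.906), POLR2A (0.901), COL2A1 (0.899), ZNF394 (0.894) and ISLR (0.877), and over the 15 lambs these were at 0.740, 0.769, 0.765, 0.701 and 0.643. The 5 of highest r over the 15 lambs, chosen after the values were seen, were MGST3 (0.922), PSENEN, MTMR2, VDAC3 and ATG3, and 0 were shared with the first 5. The points of each r share the same arrays and normalization.

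**Figure D5:**
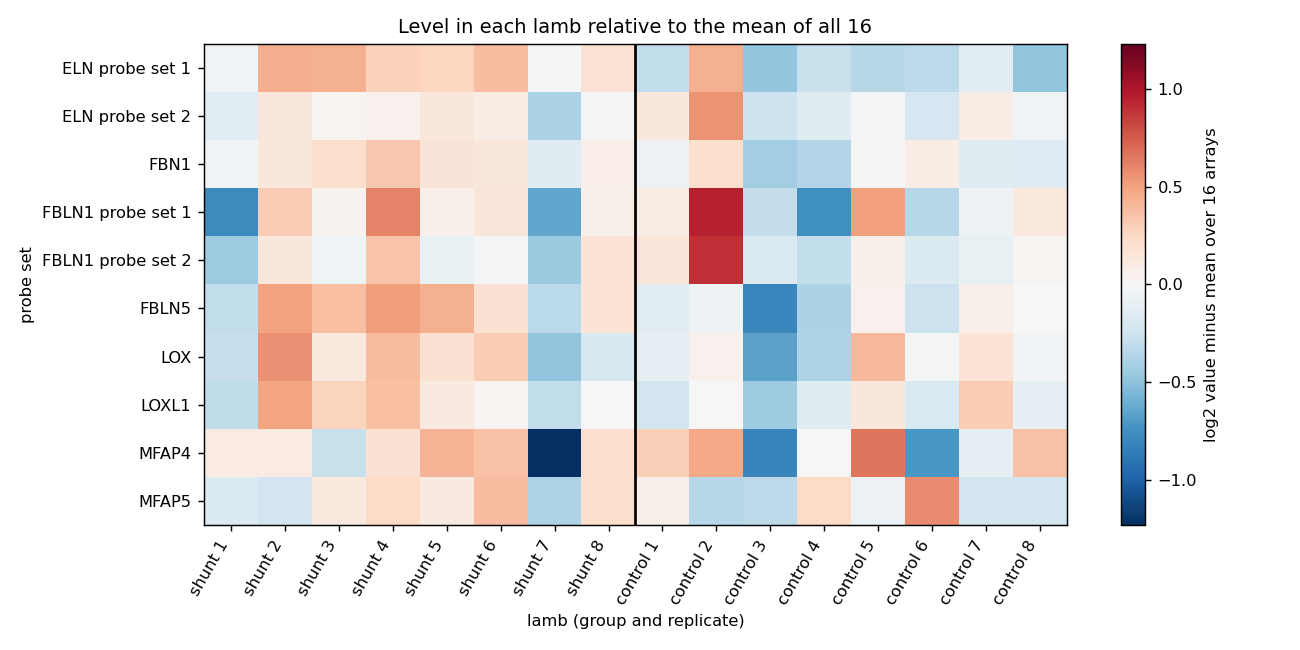
The level of each probe set (rows) in each lamb (columns, shunt left and control right of the line), as the log2 value minus the mean over 16 arrays, red above and blue below. Shunt replicates 1 and 7 and control replicate 3 are blue in most rows, and control replicate 2 is red in ELN, FBN1, FBLN1 and MFAP4.

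A sign of RNA quality moved with most of the members from lamb to lamb, though not with the groups. The share of all probe sets that moved with it was not computed, so whether this is particular to the members was not tested. For 6 control genes with probe sets at both ends, the signal at the 3' end minus that at the 5' end is larger where RNA is shorter, and it averaged 1.02 ± 0.13 in shunt and 1.00 ± 0.23 in control lambs (SD, n = 8 each, exact permutation p = 0.821). After subtracting group means, and in a family of 10 relations added after the values were seen, its r with MFAP4 was -0.797 (permutation p = 2.0e-04, adjusted p = 0.0020) and with FBLN1 probe set 1 -0.769 (permutation p = 0.00068, adjusted p = 0.0034). Spearman's rho was -0.835 (permutation p = 0.0004) and -0.824 (permutation p = 0.00023), with adjusted p = 0.0020 for both. Without the 2 lambs farthest from the median, control replicates 5 and 6, r was -0.747 and -0.785.

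LOX (r = -0.706), FBLN5 (-0.625), ELN probe set 2 (-0.623) and FBLN1 probe set 2 (-0.589) also passed after adjustment, with adjusted permutation p from 0.00587 to 0.0396. Their rho lay between -0.676 and -0.644 (adjusted permutation p from 0.0138 to 0.0151), and without the same 2 lambs their r lay between -0.772 and -0.667. FBN1 (-0.572), LOXL1 (-0.462), ELN probe set 1 (-0.375) and MFAP5 (0.069) did not, with adjusted permutation p from 0.0562 to 0.822. LOXL1 passed by rho, at -0.532 (permutation p = 0.0338, adjusted p = 0.0483). Without control replicates 5 and 6 the r was -0.833 for FBN1, the strongest of the 10, -0.559 for ELN probe set 1, -0.414 for LOXL1 and -0.244 for MFAP5. Without control replicate 2, the r of ELN probe set 1 was -0.242 (adjusted permutation p = 0.375) and that of MFAP4 -0.783 (adjusted permutation p = 0.0036). With this difference as a covariate, the shunt minus control difference was 0.49 ± 0.11 for ELN probe set 1 (SE, adjusted p = 0.0809), and the SE of MFAP4 was 0.15 in place of 0.24, with a difference of 0.01. Its part in the co-variation of the members was not tested.

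Smooth muscle and fibroblasts both make elastin, and in whole lung a larger share of such cells and more RNA per cell cannot be told apart. Of the smooth muscle markers, 9 of 12 probe sets had a higher mean in shunt lung, with a median difference of 0.16. The mean level of the list ran from 10.01 to 10.28 in shunt lambs, against 9.86 to 10.30 in control lambs. MYH11, smooth muscle myosin, differed by 0.33 ± 0.10 (SE, adjusted p = 0.226) and ACTA2, smooth muscle actin, by 0.27 ± 0.12 (adjusted p = 0.330), and 0 of the 12 passed by limma, while 5 of 12 were higher before adjustment, against 6.42% of all probe sets, and 0 lower, against 7.32%. Fibroblast markers had 12 of 18 probe sets with a higher mean and a median of 0.02, and before adjustment 1 was higher and 1 lower. Their list means ran from 9.62 to 10.02 in shunt lambs, against 9.54 to 9.98 in control lambs. The 3 probe sets of PDGFRA differed by -0.01, 0.07 and 0.04. The part of either cell type in the ELN difference was not tested.

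Control replicate 2, the control with high ELN, had the lowest smooth muscle list mean of the 8 controls, at 9.86, and the highest fibroblast list mean, at 9.98. It also had the highest means of the controls for airway cartilage (6.09, against 5.85 to 6.05 in the other controls) and mesothelium (8.15, against 7.58 to 8.03). The cartilage means are dim, and this array also had the highest mean of the dim poly-A probe sets (4.57, next control 4.33). Whether the cartilage mean reflects the tissue taken was not tested. A probe set of the cartilage collagen COL2A1, 1 of 4 and at percentile 26 of the probe sets, was among the 5 most like ELN over 16 lambs. It was not among the first 5 over the 15 without that array, where its r was still 0.765 and 95% of probe sets had an r under 0.531. Of the other lists, endothelial markers had 12 of 16 probe sets higher (median 0.11) and alveolar type 1 and 2 markers 0 of 15 (median -0.15). Airway epithelial markers had 1 of 7 higher, cartilage 5 of 22, mesothelium 0 of 3, macrophages and neutrophils 1 of 11, lymphocytes 4 of 10 and erythroid cells 3 of 7. PECAM1 was the 1 gene of these lists past the threshold, in 1 of its 2 probe sets (0.35 ± 0.06, adjusted p = 0.0384). At an unadjusted p under 0.05, endothelial markers had 6 of 16 higher and 0 lower, and alveolar markers 0 higher and 6 of 15 lower. From airway epithelium to erythroid cells, each list had 0 higher and 0 to 3 lower. Over all probe sets 6.42% were higher and 7.32% lower. The lung marker SFTPC, a surfactant protein, was at percentile 99.7 of all probe sets, and SCGB1A1 was not analysed here.

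Partners of the elastic fibre outside the members were taken from 5 lists with 95 probe sets of 60 genes, and 0 of the 95 passed by limma. Before adjustment (p under 0.05), 14 were higher (14.7%) and 8 lower (8.42%), where 6.42% of all probe sets were higher and 7.32% lower. The counts for each list are on that scale. The list of other elastin and microfibril proteins also holds proteins of the basement membrane and the wider matrix. It had 18 of 32 genes measured with 26 probe sets, of which 3 were higher and 1 lower, and a median difference of 0.04. The 3 higher were probe sets of NID1, NID2 and VCAN. NID1, a basement membrane linker, differed by 0.21 ± 0.06 (SE, adjusted p = 0.198), NID2 by 0.32 ± 0.11 (adjusted p = 0.263) and the proteoglycan VCAN by 0.27 ± 0.12 (adjusted p = 0.325). EFEMP1, the gene of fibulin-3, was lower by all 3 probe sets, at -0.27, -0.19 and -0.08 (adjusted p = 0.234 for the first).

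Latent TGF-beta binding proteins, which share the microfibril with fibrillin, and their ligands had 6 of 9 genes measured with 7 probe sets, 1 higher and 0 lower, and a median of 0.08. LTBP1 was the 1, at 0.30 ± 0.10 (SE, adjusted p = 0.245), and LTBP2 was at 0.11 and 0.08 in its 2 probe sets. TGFBI, a matrix protein induced by TGF-beta, was at -0.17 and TGFB3 at 0.08.

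The list of cross-linking cofactors also holds matrix proteins such as the tenascins. It had 7 of 12 genes measured with 9 probe sets, 1 higher and 2 lower, and a median near 0 (0.0041). The 2 lower were tenascins, TNXB and a probe set of TNC. PCOLCE, an enhancer of the protease BMP1 that trims procollagens, differed by 0.25 ± 0.08 (SE, adjusted p = 0.222) and by 0.24 in its other probe set. TNXB, a tenascin of the connective tissue, differed by -0.29 ± 0.11 (adjusted p = 0.270), and tenascin C, TNC, by -0.21 and -0.17.

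Receptors and uptake genes had all 11 of 11 genes measured with 19 probe sets, 6 higher and 2 lower, and a median of 0.06. The list's mean level ran from 8.43 to 8.62 in shunt lambs, against 8.39 to 8.48 in control lambs. The integrin subunit ITGAV, which pairs with ITGB3 or ITGB5 to bind fibrillin and fibulins, differed by 0.44 ± 0.11 (SE, adjusted p = 0.141) and 0.26 in its 2 probe sets. ITGB5 differed by 0.28 ± 0.08 (adjusted p = 0.192) in a probe set with a mean of 8.86, and by 0.01 in its brighter probe set, with a mean of 13.54. ITGB1 differed by 0.14 ± 0.04 (adjusted p = 0.225). ITGA5 differed by 0.41 in 1 probe set and by -0.07 and -0.06 in the others.

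Elastases and their inhibitors had 18 of 23 genes measured with 34 probe sets, 3 higher and 3 lower, and a median of -0.02. TIMP1, an inhibitor of matrix metalloproteases, differed by 0.49 ± 0.18 and 0.43 ± 0.18 in its 2 probe sets (SE, adjusted p = 0.272 and 0.317), and CST3, an inhibitor of cysteine cathepsins, by 0.23 ± 0.07 (adjusted p = 0.204) in 1 of 3. ELANE, neutrophil elastase, differed by -0.24 ± 0.09 (adjusted p = 0.298) and was dim, at percentile 32.3. CTSB, a cysteine cathepsin, was at -0.15 in the probe set of smallest p, and its 5 others ran from -0.15 to 0.16.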

How the data were processed

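The values the authors deposited are on the log2 scale, 1 for each probe set of each array. The submitters' processing notes name RMA, which subtracts background, normalizes by quantiles and summarizes probes. Its version is not stated there. Scanner files, detection calls and scan dates were not used here, so batches were not tested and the number of arrays limits the precision. The table held 24128 probe sets. The 112 manufacturer controls were left out, and 13292 of the rest had 1 symbol. Shunt and control were compared with limma 3.58.1 (R 4.3.3), lmFit and eBayes without covariates, two-sided, with Benjamini-Hochberg adjustment over 24016 probe sets at 0.05. The same fit was tested on simulated data. Alternatives were the replicate block, other normalizations, array weights, other filters and probe set rules, and leaving out each array. Correlations used 100000 permutations within groups (Python 3.11.15), and plots matplotlib 3.10.9. Genes outside the members were named as up to 5 probe sets of smallest p per related list, defining cell markers, and the 5 genes most correlated with ELN. Members and lists were chosen with earlier results of these data known. No sequences or genome positions were used.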

Additional observations from a re-analysis of the deposited data

Results flagged for a closer look

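In 7 of 64 sets of values 1 lamb stood away from the other 7 of its group, by its gap to the nearest lamb over the group's range, where chance gives about 3.2. Control replicate 2 accounted for 5. It had the highest ELN probe set 1 (11.71, next control 11.13, ratio 0.627) and FBLN1 probe set 2 (9.15, next 8.40, ratio 0.625) of the controls. It also had the highest mean of the poly-A probe sets (4.57, next 4.33, ratio 0.744), the lowest mean correlation with other arrays (0.983, next 0.990, ratio 0.774) and the largest spread around the median array (0.329, next 0.212, ratio 0.695). MFAP4 was lowest in shunt replicate 7 (7.21, next 8.17, ratio 0.580). The alveolar type 1 and 2 list mean was highest in shunt replicate 1 (10.60, next 10.44, ratio 0.533).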

How the results depend on the processing

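ELN probe set 1 kept its direction in all 16 fits with 1 array left out (0.45 to 0.58) and in the 10 other alternatives, from 0.23 with the mean of both ELN probe sets (adjusted p = 0.320) to 0.57 with array weights. It passed with array weights (adjusted p = 0.00832) and without control replicate 2, and the member count was then 1 in place of 0. The weight of control replicate 2 was 0.232, the lowest. FBN1 (0.17 to 0.26), FBLN5 (0.30 to 0.46), LOX (0.062 to 0.23), LOXL1 (0.10 to 0.22) and MFAP5 (0.022 to 0.16) kept their sign with 1 array left out and passed in 0 fits. With 1 array left out, ELN probe set 2 ran from -0.062 to 0.053, FBLN1 from -0.16 to 0.082 and -0.16 to 0.022, and MFAP4 from -0.16 to 0.14. Array weights turned the sign of ELN probe set 2 (0.064), FBLN1 (0.21 and 0.073) and MFAP4 (0.068), cyclic loess that of ELN probe set 2 (0.0070), and the 3' minus 5' covariate that of MFAP4 (0.011). In the other settings the member count at an adjusted p was 0.

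Without control replicate 2, r with ELN was 0.54 for FBN1, 0.50 for both FBLN1 probe sets, 0.72 for FBLN5, 0.71 for LOX and 0.38 for MFAP5, and MFAP5 went at -0.024 with the 3' minus 5' difference. The related lists had 4 probe sets lower at an unadjusted p under 0.05 without that array or after median centring, in place of 8. The FBLN1 subtraction ran from -0.012 to 0.12 with 1 array left out, below 0 without control replicate 4. The cause of each of these shifts was not tested.

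Equal replicate numbers gave no clear pairing of the arrays, though 8 pairs are too few to detect a weak one. Same-number correlations of deviations ran from -0.259 to 0.222, over 0.1 in 2 of 8 pairs. Of the shunt arrays, 0 of 8 correlated best with their own number. With a replicate block ELN probe set 1 was at 0.48 (adjusted p = 0.174), 0 members passed, and the ELN subtraction passed (adjusted p = 0.0184). Cyclic loess gave the highest adjusted p of that subtraction, 0.0446. Over all probe sets 16 passed higher and 1 lower, against 0 and 0 with the block, 36 and 9 with array weights, and 6 and 0 to 53 and 22 with 1 array left out, the most without shunt replicate 1. After median centring 2184 had an unadjusted p under 0.05 as higher and 1045 as lower, in place of 1543 and 1759. Signal over background is unknown for all probe sets, including ELN probe set 2, whose mean was at percentile 50.5.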
